A study of Mus musculus with 10 samples.

Results

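The genes described here mark macrophages and leukocytes in general. They are 39 genes on a list made from textbook markers of these cells, and 38 of them had a value among the 30772 named genes of the array. The list was chosen with earlier results of these data known, so its counts beside those of all genes are not independent evidence. A member entered if a row of the deposited table was annotated with its symbol, or a synonym of it, alone. Each of the 38 had 1 such row. The remaining gene on the list is Lyn. The members were sorted by role into 11 resident-type macrophage genes, 8 monocyte and phagocyte genes, 8 activation genes and 12 pan-leukocyte genes, Lyn among the last.

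RNA of whole kidneys from 10 mice aged 5 weeks was measured on Affymetrix whole-transcript arrays, 1 array per mouse. The 5 knockout mice carried floxed Lkb1 (gene symbol Stk11, a serine/threonine kinase) and the KspCre transgene, in which the promoter of Cdh16, a kidney tubule cadherin, drives Cre. The 5 control mice were littermates with Lkb1flox/+ or Lkb1flox/flox alleles and no KspCre. Titles call these groups Kidney_STK11_KD and Kidney_WT, the strain is labelled C57Bl/6N although the floxed line is described as of mixed background, and sex is not labelled. Floxed alleles were thus present in both groups, Cre in the knockouts alone, and an effect of Cre itself cannot be told apart from loss of Lkb1. The design text names MDCK cells, while each sample is labelled as mouse kidney. Proximal tubule markers were bright in both groups (Slc34a1, the phosphate transporter, averaged 13.23 in controls and 13.12 in knockouts).

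Macrophages arise from embryonic precursors that seed the kidney and from blood monocytes that enter later. Resident cells are known for the surface receptors Adgre1 (F4/80) and Mrc1 and for clearing debris, whereas incoming monocytes carry Ly6C and lysozyme and can take up inflammatory or reparative programs. Pan-leukocyte genes such as Ptprc (CD45) are shared by nearly all white blood cells. The transcription factor PU.1, product of Spi1, directs the myeloid lineage.

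Values are log2 RMA expression values (robust multi-array average, a background-corrected and normalised summary of the probes of a transcript). The comparison asked which of these genes differed between knockout and control kidneys. A gene is said to have risen or fallen where limma's two-sided test, fitted over all 30772 genes and adjusted by the Benjamini-Hochberg method, gave an adjusted p below 0.05. By that rule 5.23% of all genes rose and 2.68% fell. Of the 38 members 28 rose (73.7%), 0 fell and 10 did not pass. At an unadjusted p below 0.05, limma gave 31 members higher and 0 lower. The median log2 difference, knockout minus control, was 0.61 over the members and -0.03 over all genes. All 5 knockout kidneys lay above all 5 controls for 26 members, against 5.00% of all genes, and 9 members rose by a fitted difference of at least 2-fold, against 0.302% of all genes. For Ms4a7, among these 9, the control values were too dim for a measured fold. In a whole kidney, more cells of a type and more RNA per cell cannot be told apart.

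**Figure D1:**
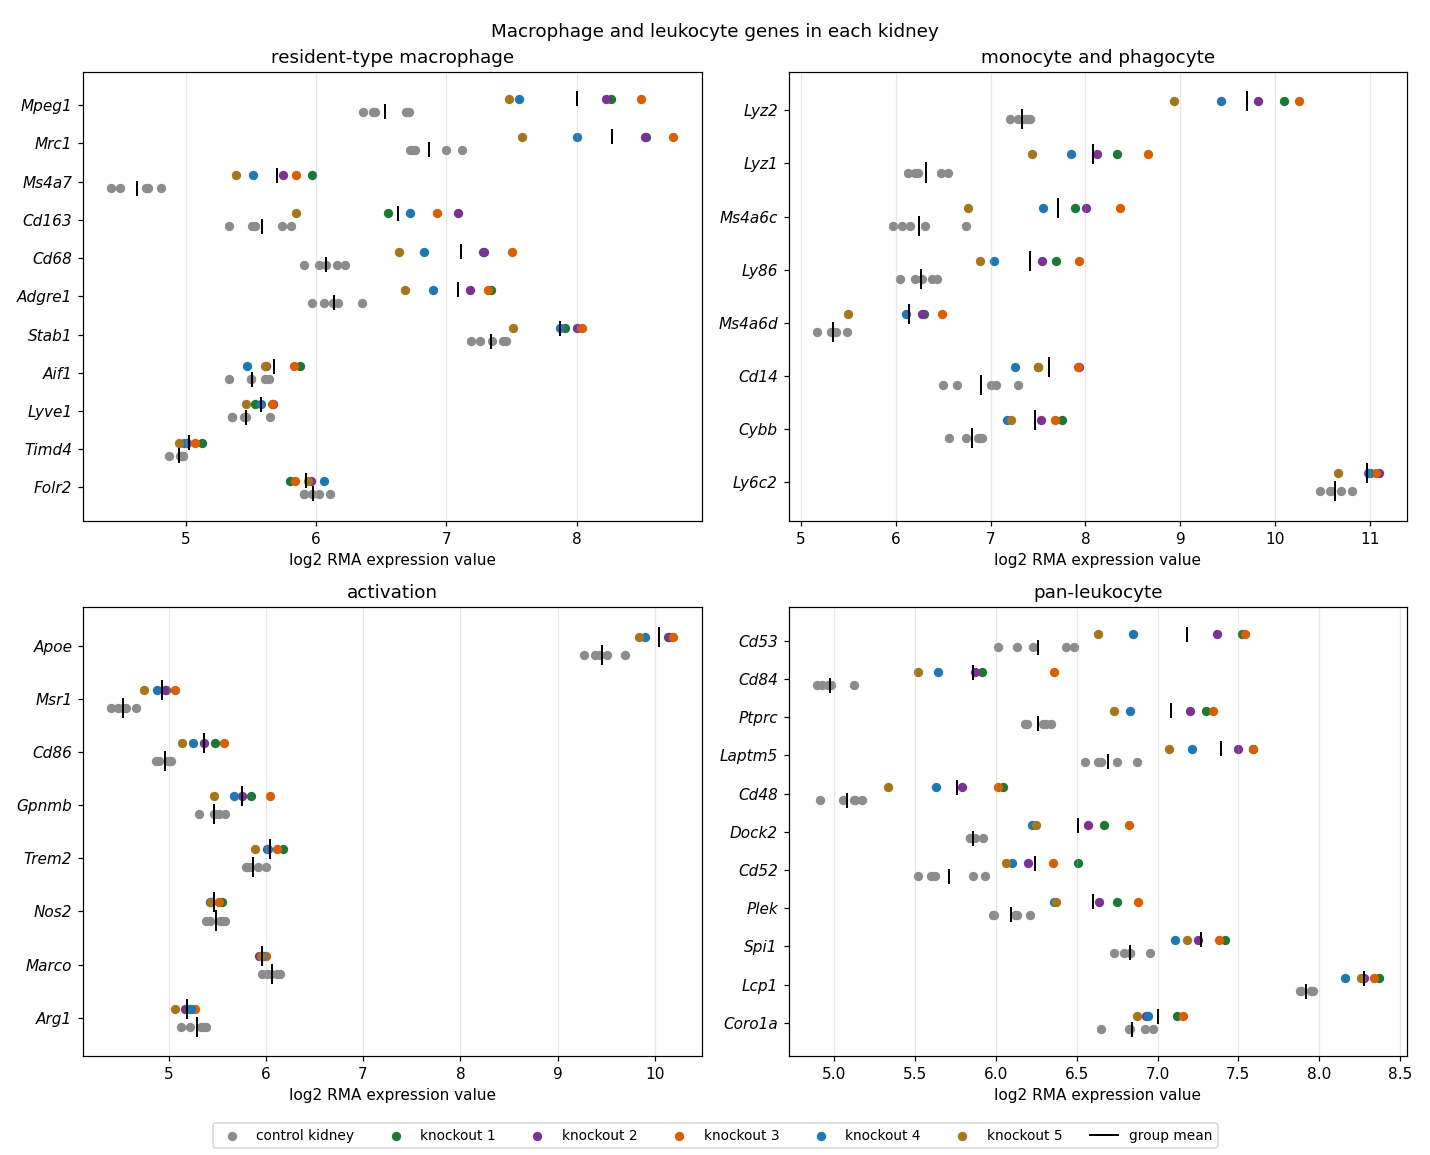
The log2 RMA expression value (x axis) of each of the 38 genes in each kidney, in panels by gene class. Grey points are the 5 controls, coloured points the 5 knockouts and black ticks the group means. The groups separate for genes such as Lyz2 (controls 7.21 to 7.42, knockouts 8.93 to 10.25) and overlap for genes such as Folr2 and Nos2.

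The upstream sequences of the lysozyme pair are shown because these tandem genes had the largest differences among the members. As related copies they may also share array signal, which was not checked and which upstream bases cannot show. Lyz2 (chromosome 10, 117277541 to 117282272, mm10) and Lyz1 (117287795 to 117292868) lie 5522 bases apart. The 100 bases before each gene start, from RefSeq (GRCm38.p6, the build called mm10), are written 5′ to 3′ on the minus strand. Capitals mark the 92 positions that are the same in both, compared base by base without gaps. Over the 250 bases before each start, 152 were the same by this comparison.
Lyz2 (chr10:117282273-117282372): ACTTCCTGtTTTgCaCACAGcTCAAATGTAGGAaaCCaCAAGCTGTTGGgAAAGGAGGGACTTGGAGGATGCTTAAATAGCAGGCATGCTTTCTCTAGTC
Lyz1 (chr10:117292869-117292968): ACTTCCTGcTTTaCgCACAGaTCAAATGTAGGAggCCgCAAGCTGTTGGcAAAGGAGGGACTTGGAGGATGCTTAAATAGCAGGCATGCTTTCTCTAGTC

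Of the 11 resident-type macrophage genes 7 rose and 4 did not pass, with a median log2 difference of 0.95. Resident-type is the name of the list, and whether the signal came from resident cells or from monocytes that entered was not tested. Adgre1, which encodes the F4/80 antigen (chromosome 17, 57358581 to 57483529), read 6.35, 6.06, 6.13, 5.97 and 6.17 in controls 1 to 5 and 7.34, 7.18, 7.32, 6.90 and 6.68 in knockouts 1 to 5. The groups did not overlap, and knockout 5 was the nearest to the controls. Adgre1 rose 1.93-fold (log2 difference 0.95, SE 0.12, n = 5 each, adjusted p = 7.37e-04). Mrc1, the mannose receptor, ranged from 6.72 to 7.12 with a median of 6.76 in the controls, and from 7.58 to 8.74 with a median of 8.52 in the knockouts. Its knockouts were all higher, with knockout 3 highest and knockout 5 lowest (log2 difference 1.41, SE 0.19, adjusted p = 9.76e-04).

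Mpeg1, a pore-forming protein of phagocytes, had the largest difference of this class. It read 6.69, 6.71, 6.44, 6.36 and 6.45 in controls and 8.26, 8.22, 8.49, 7.56 and 7.48 in knockouts. The lowest knockout stood 0.77 above the highest control (log2 difference 1.47, 95% interval 1.09 to 1.86, adjusted p = 5.41e-04). Cd68, a lysosomal glycoprotein of macrophages, went from 6.08 ± 0.12 to 7.11 ± 0.36 (SD, n = 5 each; adjusted p = 0.00117). The haemoglobin scavenger receptor Cd163 measured 5.74, 5.81, 5.51, 5.53 and 5.33 in controls and 6.55, 7.09, 6.93, 6.72 and 5.85 in knockouts. Knockout 5 exceeded the highest control by little, while the other 4 knockouts stood clear of them (log2 difference 1.04, SE 0.19, adjusted p = 0.00594). Stab1, a scavenger receptor of macrophages and sinusoidal or lymphatic endothelium, rose less, by 0.53 (SE 0.09, adjusted p = 0.00460). Ms4a7, a four-transmembrane protein of macrophages, was dim in controls, where its mean exceeded only 35.8% of the 5222 negative control probe sets. It was at least 1.38-fold higher in knockouts, with values below each array's median of those probe sets raised to that median, and its fitted log2 difference was 1.07 (SE 0.11, adjusted p = 2.45e-04).

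The 4 resident-type genes that did not pass were Aif1, Lyve1, Timd4 and Folr2. Aif1 (IBA1), an actin-binding protein widely used to stain macrophages, differed by 0.17 (95% interval -0.01 to 0.35, adjusted p = 0.253). Lyve1, a hyaluronan receptor of perivascular macrophages and lymphatic vessels, differed by 0.12 (interval -0.02 to 0.26, adjusted p = 0.277). Timd4, the phosphatidylserine receptor of long-lived resident macrophages, was dim in both groups (4.95 ± 0.05 and 5.03 ± 0.07), with the group means above 43.7% and 45.5% of negative controls. Folr2, a folate receptor of resident macrophages, differed by -0.06 (interval -0.19 to 0.07, adjusted p = 0.570). The groups overlapped for all 4.

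All 8 monocyte and phagocyte genes rose, with a median log2 difference of 0.97. Lyz2, the lysozyme of monocytes, macrophages and neutrophils, read 7.34, 7.29, 7.42, 7.21 and 7.38 in controls and 10.09, 9.82, 10.25, 9.43 and 8.93 in knockouts. Its lowest knockout was 1.51 above its highest control, and the knockouts were spread over more than 1 log2 unit (log2 difference 2.38, SE 0.20, adjusted p = 6.28e-05). Lyz1, known as the lysozyme of Paneth cells, read 6.13, 6.20, 6.48, 6.24 and 6.55 in controls and 8.33, 8.12, 8.66, 7.85 and 7.44 in knockouts. The knockouts fell in the same order for both lysozymes, highest in knockout 3 and lowest in knockout 5. The values of each remain uncertain because signal may be shared between these related genes.

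Ly6c2, which encodes the Ly6C antigen of inflammatory monocytes, changed least of the 8. It ranged from 10.47 to 10.81 with a median of 10.58 in controls, and from 10.66 to 11.09 in knockouts, with the second lowest knockout at 10.97. Knockout 5 lay among the controls and the other 4 knockouts above them (log2 difference 0.33, SE 0.08, adjusted p = 0.0294). That call was lost in 8 of 18 alternative analyses, 7 of which left out 1 kidney (control 1, 3 or 5, or knockout 1, 2, 3 or 4; adjusted p = 0.0585 to 0.0808). The near-identical neighbour Ly6c1, known from endothelium and named here after its values were seen, did not pass (9.65 ± 0.12 and 9.83 ± 0.15, adjusted p = 0.157), and signal could be shared between the pair.

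Cd14, the co-receptor for bacterial lipopolysaccharide, ranged from 6.50 to 7.29 in controls and from 7.26 to 7.93 in knockouts, with a median of 7.50. The groups overlapped through control 1 and knockout 4, and Cd14 had the widest spread among controls of any member (SD 0.32; log2 difference 0.72, SE 0.16, adjusted p = 0.0162). Without both controls 4 and 5, an analysis added after the data were seen, its adjusted p was 0.0635. Ly86 (MD-1), the partner of the toll-like receptor homologue CD180, went from 6.27 ± 0.15 to 7.42 ± 0.44, a 2.21-fold rise (adjusted p = 0.00193). Cybb, the catalytic subunit of the phagocyte NADPH oxidase, averaged 6.80 ± 0.15 in controls and 7.47 ± 0.27 in knockouts (log2 difference 0.67, SE 0.11, adjusted p = 0.00401).

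Ms4a6c and Ms4a6d, four-transmembrane proteins of myeloid cells, also rose. Ms4a6c read 6.31, 6.74, 5.97, 6.07 and 6.15 in controls and 7.89, 8.01, 8.36, 7.55 and 6.76 in knockouts. Knockout 5 was barely above control 2, and the other knockouts were well clear (log2 difference 1.47, SE 0.25, adjusted p = 0.00393). Ms4a6d went from 5.34 ± 0.11 to 6.14 ± 0.38 (log2 difference 0.80, SE 0.15, adjusted p = 0.00659).

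Ms4a7, Ms4a6c and Ms4a6d lie in the Ms4a gene cluster of chromosome 19, and their neighbours were read after the member values were seen. Of 20 Ms4a genes measured there, 9 consecutive ones from Ms4a14 to Ms4a6d (11301249 to 11604804) rose, and the 11 on either side did not pass. The rises ran from 0.39 for Ms4a4b to 1.57 for Ms4a4a, while the flanking genes differed by -0.09 to 0.01. Ms4a4a, a macrophage member of the family, went from 5.33 ± 0.18 to 6.89 ± 0.65 (adjusted p = 0.00266). The flanking genes include Ms4a1, which encodes the B cell antigen CD20 (4.01 ± 0.05 and 3.92 ± 0.07), and Ms4a2, a subunit of the IgE receptor of mast cells (3.89 ± 0.06 in each group). The 6 risers of this stretch that are not members were Ms4a14, Ms4a4a, Ms4a4c, Ms4a4b, Ms4a6b and Ms4a4d. These genes are related copies, so probe signal may be shared among them, and control means in the stretch exceeded 23.0% to 74.5% of negative control probe sets. Those of the flanking genes exceeded 6.1% to 58.5%, and all of them but Ms4a15 were dim. Small differences of such dim genes do not show that the genes were unchanged.

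**Figure D2:**
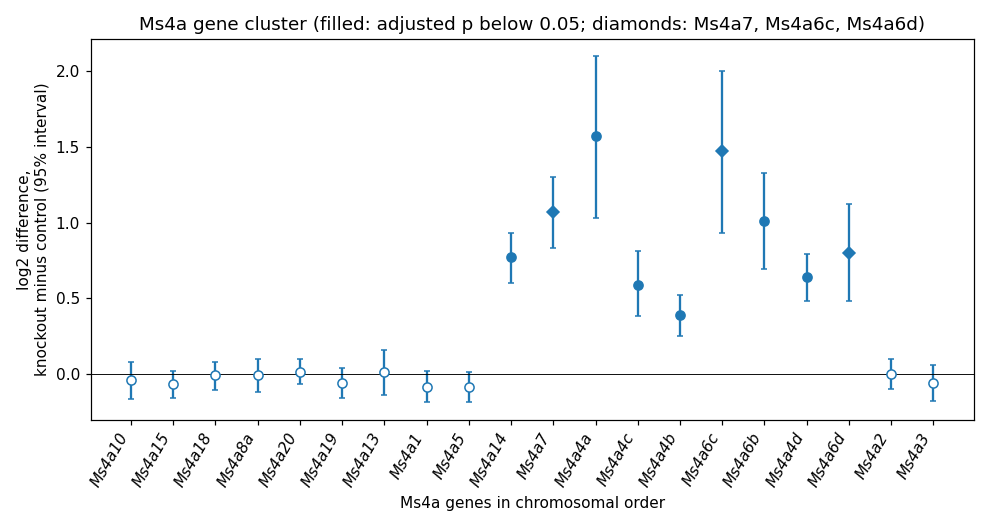
Log2 difference, knockout minus control, with its 95% interval (y axis) for 20 Ms4a genes in the order in which they lie on the chromosome (x axis). Filled symbols passed at an adjusted p below 0.05, open ones did not, and diamonds are Ms4a7, Ms4a6c and Ms4a6d. The 9 genes from Ms4a14 to Ms4a6d differ by 0.39 to 1.57 and the 11 others by -0.09 to 0.01. Control means of the 11 others exceeded 6.1% to 58.5% of negative control probe sets.

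The pan-leukocyte members Cd48 and Cd84 lie in the SLAM receptor cluster of chromosome 1. Of 7 other SLAM family genes looked at after the values were seen, Slamf7 (log2 difference 0.74, adjusted p = 0.00132) and Slamf9 (0.24, adjusted p = 0.0242) rose and 5 did not pass. Of those that did not pass, Slamf1, Slamf6, Ly9 and Cd244 were dim in controls, with means above 38.3%, 13.9%, 46.8% and 39.2% of negative controls. Slamf8, which did not pass either, was not dim (56.5%, log2 difference 0.13, adjusted p = 0.137).

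The activation genes moved least. Of 8, 3 rose and 5 did not pass, with a median log2 difference of 0.23, and leaving out knockout 5 raised the count to 5. Apoe, the lipid carrier made by macrophages and by many other cells, read 9.27, 9.38, 9.43, 9.69 and 9.51 in controls and 10.13, 10.14, 10.19, 9.90 and 9.84 in knockouts. The groups were separate, with control 4 nearest to the knockouts (log2 difference 0.58, SE 0.09, adjusted p = 0.00172). Cd86, the co-stimulatory ligand of CD28, read 4.87 to 5.03 in controls and 5.14 to 5.57 in knockouts (log2 difference 0.40, SE 0.08, adjusted p = 0.00758). The scavenger receptor Msr1 read 4.41 to 4.67 and 4.75 to 5.07 (log2 difference 0.40, SE 0.07, adjusted p = 0.00374). Both were dim in controls, and Msr1 in knockouts too, so the size of these rises is uncertain. Cd86 was at least 1.10-fold higher, and Msr1 is given no fold.

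Nos2 and Arg1, the enzymes that split arginine metabolism between inflammatory and reparative macrophages in culture, did not pass. Nos2 read 5.38 to 5.58 in controls and 5.43 to 5.55 in knockouts (log2 difference -0.02, 95% interval -0.13 to 0.09, adjusted p = 0.869), and its sign turned after quantile normalisation (0.01). Arg1 read 5.13 to 5.39 and 5.07 to 5.27 (log2 difference -0.10, interval -0.23 to 0.04, adjusted p = 0.371). Marco, a scavenger receptor of alveolar and splenic macrophages, differed by -0.10 (interval -0.20 to 0.01, adjusted p = 0.252). Control means of these 3 genes exceeded 51.9% to 70.5% of negative control probe sets. The knockout mean of Arg1 exceeded 49.2%, so Arg1 was dim in knockouts.

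Gpnmb and Trem2, known from lipid-laden and scar-associated macrophages, stood between these outcomes. Gpnmb, a transmembrane glycoprotein, read 5.52, 5.31, 5.58, 5.47 and 5.48 in controls and 5.85, 5.76, 6.04, 5.67 and 5.47 in knockouts. Knockout 5 sat among the controls and the other 4 knockouts above every control (log2 difference 0.28, SE 0.09, adjusted p = 0.0807). Trem2, a lipid-sensing receptor, differed by 0.17 (SE 0.06, adjusted p = 0.128). Without knockout 5 both passed, with adjusted p = 0.0132 for Gpnmb and 0.0456 for Trem2 by limma. Gpnmb passed in 4 of 18 alternative analyses, quantile normalisation (adjusted p = 0.0366) and array quality weights (0.0472) among them.

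Of 11 measured pan-leukocyte genes 10 rose and 1 did not pass, with a median log2 difference of 0.64. Ptprc, the CD45 phosphatase found on nearly all leukocytes (chromosome 1, 138062859 to 138175756), read 6.34, 6.29, 6.19, 6.18 and 6.31 in controls and 7.30, 7.20, 7.34, 6.83 and 6.73 in knockouts. The controls lay close together and all knockouts above them (1.76-fold, log2 difference 0.82, SE 0.11, adjusted p = 0.00108). Spi1, which encodes PU.1, read 6.83, 6.79, 6.95, 6.73 and 6.83 in controls and 7.42, 7.25, 7.38, 7.11 and 7.18 in knockouts. Its groups were likewise separate (1.36-fold, log2 difference 0.44, SE 0.06, adjusted p = 0.00168).

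Among the membrane proteins of this class, the tetraspanin Cd53 rose by 0.93 (SE 0.17), the lysosomal protein gene Laptm5 by 0.70 (SE 0.10) and the glycosylphosphatidylinositol-anchored Cd52 by 0.53 (SE 0.10), with adjusted p of 0.00594, 0.00171 and 0.00690. The SLAM receptors Cd84 and Cd48 were dim in controls and were at least 1.55-fold and 1.44-fold higher (fitted log2 differences 0.89 and 0.68, adjusted p = 0.00156 and 0.00445). Genes of signalling and the actin cytoskeleton also rose. Dock2, a Rac activator needed for leukocyte migration, rose by 0.64 (SE 0.10). The protein kinase C substrate Plek, also abundant in platelets, rose by 0.51 (SE 0.10). Lcp1 (L-plastin), an actin bundler, read 7.88 to 7.96 in controls and 8.16 to 8.37 in knockouts, a rise of 0.36 (SE 0.05, adjusted p = 7.80e-04). Coro1a, an actin regulator of lymphocytes and other leukocytes, read 6.97, 6.65, 6.92, 6.82 and 6.83 against 7.12, 6.93, 7.16, 6.94 and 6.87. Its groups overlapped and it did not pass (log2 difference 0.17, SE 0.07, adjusted p = 0.198).

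**Figure D3:**
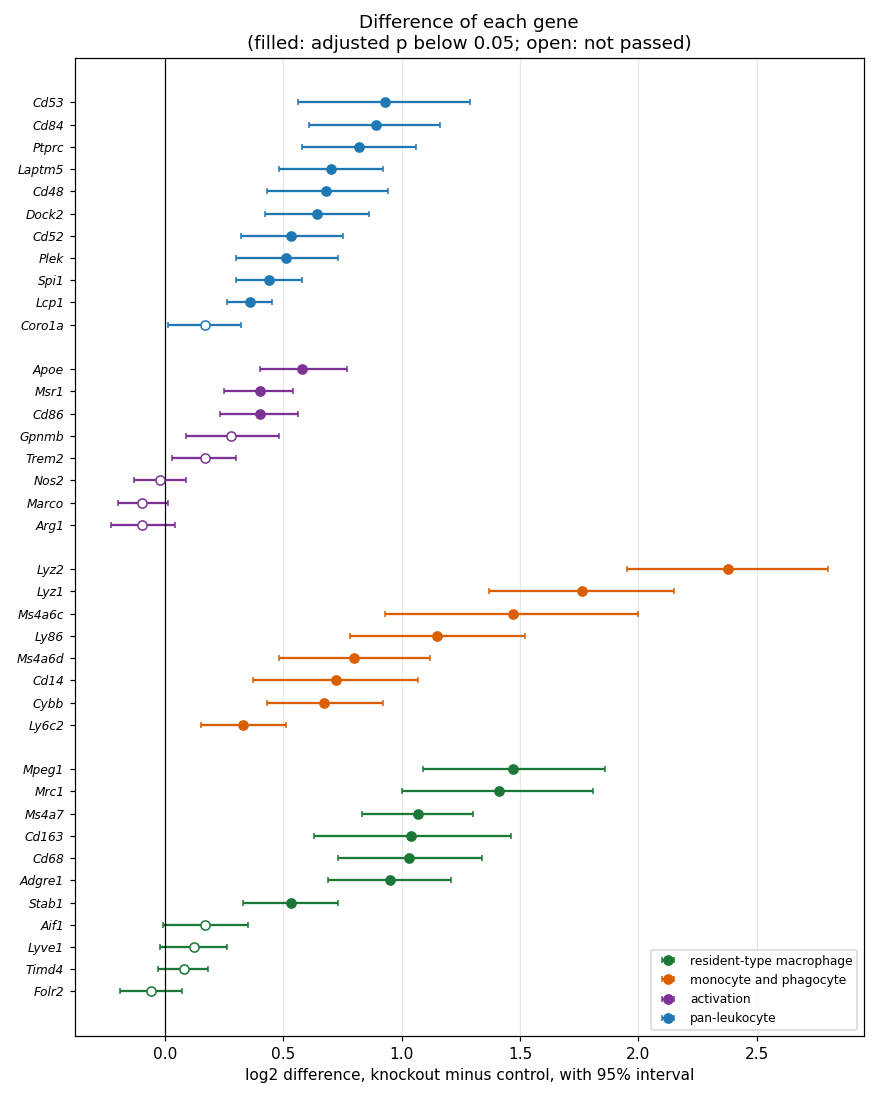
Log2 difference, knockout minus control, with the 95% interval of the fit (x axis) for the 38 genes, ordered within each class and coloured by class. Filled points passed at an adjusted p below 0.05 and open points did not. The largest is Lyz2 (2.38), and the 10 open points lie between -0.10 and 0.28.

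The rise was unequal among knockout kidneys, with knockout 3 most often highest and knockout 5 most often lowest. Their full order varied between members, and the most frequent one (knockouts 3, 1, 2, 4 and 5 from high to low) was that of 12 members, Lyz1 and Lyz2 among them. The median over the 38 members of the value minus the control mean was 0.74, 0.69, 0.84, 0.38 and 0.34 in knockouts 1 to 5, and -0.08 to 0.08 in the controls. Knockout 3 was the highest knockout for 21 members, and knockout 5 the lowest for 28. Kendall's coefficient of concordance, which is 1 where all genes rank the kidneys alike and 0 where their ranks do not concur, was 0.66 among the knockouts and 0.21 among the controls. These are descriptions over 38 genes read in the same 5 kidneys each, and the genes are not independent. The standard deviation was larger in knockouts than in controls for 33 members (86.8%), against 47.6% of all genes.

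Stk11 itself read 9.12, 9.21, 9.07, 9.21 and 9.31 in knockouts 1 to 5 and 9.40 to 9.48 in controls, lower in every knockout as labelled (log2 difference -0.25, adjusted p = 0.00764). It was lowest in knockout 3 and, among knockouts, highest in knockout 5, the kidneys with the highest and the lowest member median. Proximal tubule markers stood at -0.12, -0.19, -0.27, -0.08 and 0.01 from the control mean by the same median in knockouts 1 to 5, so they were lowest in knockout 3 and nearest to controls in knockout 5. No relation across 5 kidneys was tested.

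**Figure D4:**
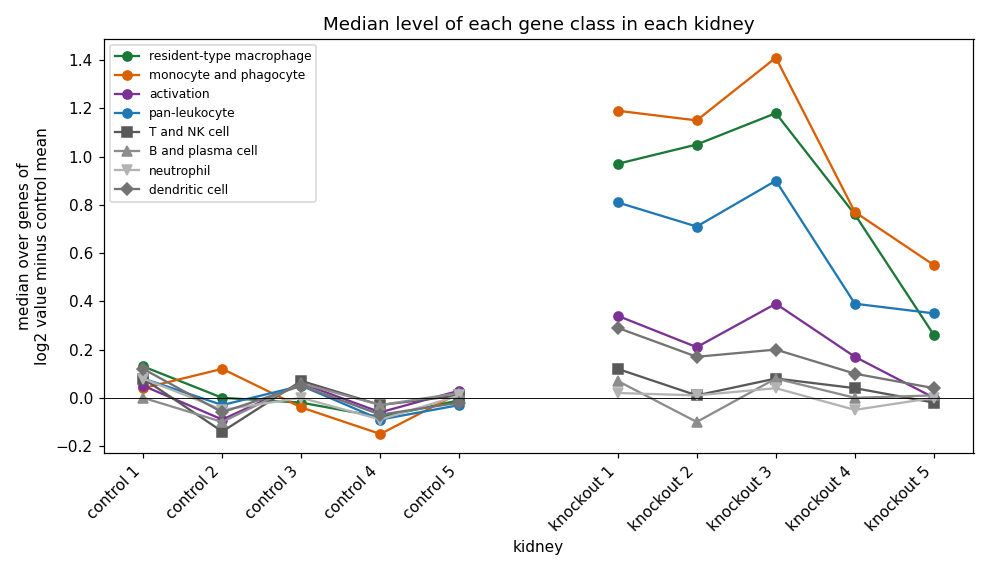
Median over the genes of a class of the log2 value minus that gene's control mean (y axis) in each of the 10 kidneys (x axis), for the 4 member classes in colour and 4 lists of other leukocytes in grey. Lines join kidneys of a group for legibility and carry no order. Monocyte and phagocyte genes range from 0.55 in knockout 5 to 1.41 in knockout 3. The T and NK cell, B and plasma cell and neutrophil medians stay between -0.14 and 0.12. Dendritic cell medians of the knockouts run from 0.04 to 0.29. In controls 5 of 15 T and NK cell, 2 of 9 B and plasma cell and 5 of 14 neutrophil markers were dim.

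Other mononuclear phagocyte genes, which are not members, rose as well. Of 26 measured, 20 rose, 0 fell and 6 did not pass, with a median log2 difference of 0.55, and at an unadjusted p below 0.05 limma gave 21 higher and 0 lower. The lysosomal protease gene Ctss rose by 1.31 (SE 0.20), the complement subunit C1qb by 1.27 (SE 0.17) and the phospholipase family gene Pld4 by 0.99 (SE 0.14). The 6 that did not pass were Mertk, Vsig4, C5ar1, Maf, Irf8 and Cebpb, named after their values were seen.

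Among 17 further activation genes 7 rose, 0 fell and 10 did not pass, with a median of 0.21 and, at an unadjusted p below 0.05 by limma, 9 higher and 1 lower. Fn1 (fibronectin, 1.37), the protease Ctsk (0.76) and the haem oxygenase Hmox1 (0.52) had the largest rises, and other kidney cells express all 3. The inflammatory cytokine genes Il1b (-0.02) and Tnf (0.11) did not pass, nor did Il6 and Il10, whose control means exceeded 10.9% and 24.2% of negative controls. The remaining genes of this list that rose were Il1rn (0.43), Cd9 (0.32), Clec10a (0.29) and Cd80 (0.23), with Il1rn and Cd80 dim in both groups. Il1b, Tnf, Il6 and Il10 were picked, and these remaining risers named, after their values were seen.

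Of 20 further pan-leukocyte genes 14 rose, 1 fell and 5 did not pass, with a median of 0.29. The largest rises were those of the actin regulator Nckap1l (0.87), the adaptor gene Sla (0.55) and the small GTPase Rac2 (0.53). The gene that fell was Cytip (-0.32, adjusted p = 0.00526), a regulator of leukocyte adhesion, named after its values were seen.

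Defining markers of other blood cells were read beside these genes, since Ptprc and its class are not restricted to macrophages. Of 15 T and NK cell markers 2 rose and 13 did not pass, with a median of 0.00, and by limma 4 were higher and 1 lower before adjustment at p below 0.05. Their summed linear signal was 634 to 745 in controls and 686 to 821 in knockouts. Such sums are set largely by the brightest probes and are compared here between groups within a list. The T cell co-receptor gene Cd4 (0.95, adjusted p = 0.00229) and the receptor subunit Cd3e (0.33, adjusted p = 0.0225) rose, and Cd3g (0.23, adjusted p = 0.0975) and Gzma (-0.18, adjusted p = 0.0804) did not pass. Of 9 B and plasma cell markers Sdc1 rose (0.18), which epithelia express too, and 8 did not pass. Those 8 included Ms4a1 (-0.09) and Cd79a (-0.11), and the list summed to 479 to 535 in controls and 508 to 550 in knockouts. In controls 5 of the 15 T and NK cell markers and 2 of the 9 B and plasma cell markers were dim. Small differences of such dim markers do not show that they were unchanged.

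Of 14 neutrophil markers Lcn2 (2.14), also made by injured tubules, rose and 13 did not pass, with Ly6g at 0.23 (adjusted p = 0.0833) and Csf3r at 0.21 (adjusted p = 0.124). The neutrophil-defining S100a8 averaged 3.58 and 3.64, above 15.6% of negative controls in the control group. It was among 5 markers of this list that were dim in controls. The list had a median of 0.01 and summed to 558 to 626 in controls and 767 to 1065 in knockouts. Before adjustment limma gave 3 higher and 0 lower at p below 0.05. Without Lcn2 the other 13 summed to 471 to 526 and 482 to 530. Of 10 dendritic cell markers Cd209a (0.68), which monocyte-derived cells express too, rose, while Clec9a (0.31, adjusted p = 0.0542) and Flt3 (0.27, adjusted p = 0.0557) did not pass (summed signal 544 to 616 and 586 to 699). The dendritic list had a median of 0.16 with 9 of 10 differences positive, and before adjustment limma gave 5 higher and 0 lower at p below 0.05.

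Among 7 mast cell markers Kit fell (-0.25) and 6 did not pass, with Fcer1a at -0.08 and Mcpt4 at -0.05. The summed signal was 357 to 377 in controls and 313 to 342 in knockouts. Kit, the brightest of the list (7.84 in controls and 7.59 in knockouts), largely sets that sum. In both groups 5 of the 7 markers were dim. Platelet markers, read because of Plek, gave 0 calls of 5 by limma, also 0 at an unadjusted p below 0.05, with Ppbp at -0.08 and Itga2b at -0.04 (409 to 469 and 404 to 464). Erythrocyte markers gave 0 calls of 3 by limma and 1 lower at an unadjusted p below 0.05, with Klf1 at -0.17 and Alas2 at 0.40 (234 to 410 and 271 to 413). How far any of these cells add to the pan-leukocyte rises was not tested.

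Lymphatic and blood endothelium were read because of Lyve1 and Stab1. Of 5 lymphatic markers Pdpn (0.37) and Mmrn1 (0.23) rose, Prox1 fell (-0.71) and 2 did not pass (summed signal 558 to 660 in controls and 585 to 655 in knockouts). Pdpn and Prox1 are also expressed by kidney epithelia. Blood endothelial markers gave 0 calls of 9 by limma, and unadjusted p-values below 0.05 for 0 higher and 1 lower gene, with Kdr at -0.18 and Cdh5 at 0.18 (6031 to 7301 and 5904 to 7688). Adipocyte markers gave 0 calls of 9, with 1 higher and 0 lower unadjusted, Plin4 at 0.23 and Car3 at -0.47. Their median was high in control 4 (0.48 above the control mean) and low in control 5 (-0.23) and control 1 (-0.20), with knockouts at -0.21 to -0.02. The summed signal was 1112 to 2095 in controls and 1310 to 1452 in knockouts. Without both controls 4 and 5, 25 members rose in place of 28, Ly6c2, Cd14 and Plek no longer passing. Of 10 proximal tubule markers Slc5a2 (-0.46) and Lrp2 (-0.21) fell and 8 did not pass, with Slc5a12 at -0.19 and Acsm2 at -0.15. Their summed signal was 57696 to 60818 in controls and 50068 to 58411 in knockouts. Of their 10 differences 0 were positive, and limma gave 5 lower and 0 higher at an unadjusted p below 0.05.

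**Figure D5:**
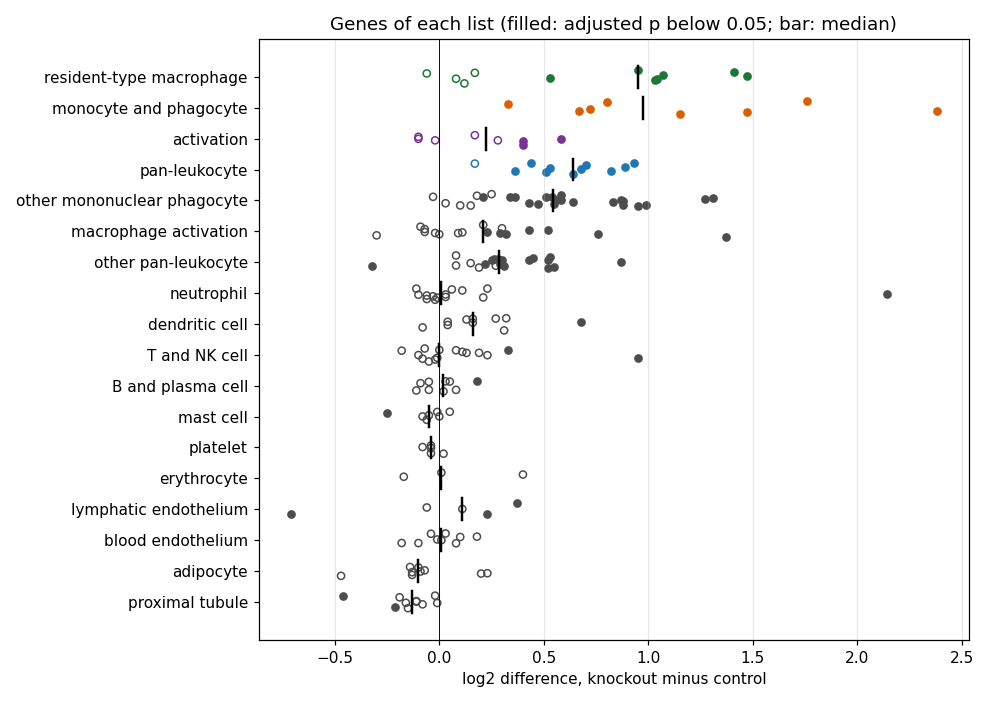
Log2 difference, knockout minus control (x axis), of each gene of the 4 member classes (colour) and of 14 other lists (grey). Filled points passed at an adjusted p below 0.05, open points did not, and black bars are list medians, which range from 0.23 to 0.97 in the member classes. The isolated filled points at the right of the neutrophil and T and NK cell rows are Lcn2 (2.14) and Cd4 (0.95).

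The 250 bases before the annotated starts of the members were read for binding motifs of factors active in macrophages. Whether the members share control by such factors was not tested. RefSeq windows existed for 28 of the 39 members and 27025 genes in all, some with several starts. TGANTCA, a loose form of the AP-1 motif in which N is any base, reads alike on both strands. It was present for 6 of 28 members (21.4%) and 7.8% of all genes. A stricter form with C or G as the centre base was not counted. The PU.1 motif GAGGAAGT was found on either strand for 1 member, Ly6c2 (3.6%, against 2.8%), and the C/EBP motif TTGCNNAA for Cd68 and Lyz1 (7.1%, against 10.8%). A match is a description of the letters in the window, and binding was not measured. The AP-1 windows are shown because they belong to members that rose and to members that did not. Those of Ms4a7, Cybb and Folr2 lie inside the full span of the gene, before an annotated start within it. They are written 5′ to 3′ on the gene's strand with the motif in capitals, and for Cd68, which has 2 matches, the one nearest to the gene start is given. Cd68, Ms4a7, Cybb and Cd84 rose, whereas Folr2 and Trem2 did not pass. The centre base is C or G for Cd68, Cd84 and Folr2, and A or T for Ms4a7, Cybb and Trem2.
Cd68 (chr11:69666171-69666230, minus strand): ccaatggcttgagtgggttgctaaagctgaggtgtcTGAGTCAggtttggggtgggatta
Ms4a7 (chr19:11334734-11334812, minus strand): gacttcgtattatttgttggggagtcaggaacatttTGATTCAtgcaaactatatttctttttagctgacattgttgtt
Cybb (chrX:9469421-9469499, minus strand): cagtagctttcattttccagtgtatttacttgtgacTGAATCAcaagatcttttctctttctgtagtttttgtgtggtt
Cd84 (chr1:171839447-171839510, plus strand): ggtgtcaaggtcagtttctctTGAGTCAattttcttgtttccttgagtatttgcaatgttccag
Folr2 (chr7:101845363-101845441, minus strand): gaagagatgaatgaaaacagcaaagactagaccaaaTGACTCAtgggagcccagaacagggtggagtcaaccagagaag
Trem2 (chr17:48346356-48346400, plus strand): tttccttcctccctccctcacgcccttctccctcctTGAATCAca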

How the data were processed

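Expression was measured in whole kidneys of 5 control and 5 knockout mice, 1 array each. The deposited values are log2 values per transcript cluster made by RMA for genome build mm10, per the submitters' processing notes. For software versions and filters, the sources used here name none, and the log2 scale was taken from the values (array medians 5.35 to 5.42). RMA summarises the probes of a transcript, so probes shared by near-identical genes can add to each. Arrays hold no read depth, and their number limits the precision.

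Rows were named from the platform annotation, updated through Entrez identifiers. Of 72688 rows, 31245 had 1 symbol, 1505 several and 39938 none, after a retired synonym listed beside its own gene was merged in 755 rows. Rows of the same gene were averaged. Limma 3.58.1 in R 4.3.3 (lmFit, eBayes with trend, no covariate) was fitted to all 30772 genes. The script was tested on simulated data. Python 3.11.15, pandas 2.3.3 and matplotlib 3.10.9 made the tables and plots. A group mean that failed to exceed 50% of the array's 5222 negative control sets was called dim, and a fold against it is a bound. That the samples are separate mice is from the extract protocol.

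All members are named. From each other list the 3 called genes with the largest differences are named, or, with fewer calls, those called and the 2 with the smallest p among the rest. Members and lists were chosen with earlier results of these data known, so no list is independent evidence.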

Additional observations from a re-analysis of the deposited data

Results flagged for a closer look

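Of 76 groups of 5 values (38 genes in controls and in knockouts), 2 held a kidney far from the others by Dixon's criterion, which chance meets in about 1 of 20 groups. Ly6c2 was 10.66 in knockout 5, with the nearest other knockout at 10.97, which placed this kidney among the controls for that gene. Timd4 was 4.87 in control 2, with the nearest other control at 4.96, for a gene dim in both groups.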

How the results depend on the processing

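Over 18 alternative analyses, 17 of them planned and 1 (leaving out controls 4 and 5 together) added after the data were seen, 25 to 30 members rose and 0 fell. Quantile normalisation gave 29 and the replicate number as a block (replicate block) 29, and leaving out each kidney in turn gave 27 to 30. Same-numbered kidneys deviated together with correlations of -0.08 to 0.32, and 3 of 5 controls correlated best with their own number. These values do not settle whether the numbers are pairs. The labels give no litter or batch, so the main fit holds no block. Under the block Gpnmb also passed (adjusted p = 0.0457), as it did in 3 other alternatives. The activation count of 3 became 1 when genes under the negative control median were left out, since Cd86 and Msr1 were then not tested, and was 3 to 5 when each kidney was left out. The difference of Nos2 turned to 0.01 after quantile normalisation and was -0.05 to 0.00 when each kidney was left out. The number of genes that fell over the whole array, 825, was 499 and 469 without control 1 or 3, 522, 446 and 442 without knockout 1, 2 or 3, 1470 without knockout 5 and 465 without controls 4 and 5. The genes that rose numbered 1084 to 1943 when each kidney was left out. The cause of these shifts was not tested. Signals near the negative controls limit the size that can be given to the rises of Msr1, Cd86, Ms4a7, Cd84 and Cd48, which passed. The same holds for the differences of Timd4 and Arg1, which did not pass.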
